A study of Homo sapiens with 24 samples.

Results

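The genes described here are 9 textbook targets of the transcription factor NRF2, namely NQO1, PIR, CBR1, AKR1B10, AKR1C1, AKR1C2, AKR1C3, GCLM and TXNRD1, set beside HMOX1, which encodes the heme-degrading enzyme heme oxygenase 1. They were chosen by symbol: every probe annotated to one of the 10 genes was taken, which gave 19 of the 47304 probes on the array. Of these probes 13 were detected on at least 4 arrays (detection p under 0.01), and they covered 9 of the 10 genes among the 12149 features tested. The only probe of AKR1C1 was undetected on all 24 arrays, so AKR1C1 was not tested, and "the 8 other genes" below are the members without HMOX1 and AKR1C1. Of the 6 annotated AKR1C2 probes, only 1 was detected.

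RNA of N/TERT1, a human keratinocyte line made immortal with telomerase, was measured on Illumina bead arrays, 4 per group in 6 groups. Cells kept undifferentiated had 0.3 mM calcium, and all 5 other groups were harvested on day 6 after a switch to 1.2 mM calcium, which makes keratinocytes differentiate. One day 6 group received no compound; the remaining ones received, from day 3, 50 µM of EGBG (an inhibitor of AMD1, which makes the aminopropyl donor needed for spermidine and spermine), 1 mM spermidine/spermine, both EGBG and spermidine/spermine, or 1 mM putrescine. The labels do not say whether 1 mM was the dose of each polyamine or of the mixture, and there was no undifferentiated group with a compound. The series record calls the 4 replicates biological; whether they were separate cultures is not stated, so the p-values measure the spread between these samples. All cells come from 1 immortalized line.

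NRF2 (gene NFE2L2) is held in the cytoplasm and marked for degradation by KEAP1; when KEAP1 is modified by reactive compounds, NRF2 enters the nucleus, pairs with a small MAF protein and binds antioxidant response elements. Its targets make glutathione, renew thioredoxin and reduce quinones and carbonyls. HMOX1 carries such elements too, but in many cells it is held back by the repressor BACH1. Heme and metals also raise HMOX1, and in some cells heat does. In skin, keratinocytes use this pathway against light, oxygen and chemicals.

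On the arrays, 10348 to 13089 probes were detected and the mean signal was 345 to 637. Any 2 arrays of a group correlated at 0.965 or more over the features. All 9 keratinocyte markers on the array were detected on 4 or more arrays, as were 4 of 12 macrophage, 2 of 7 fibroblast and 1 of 5 melanocyte markers. PTPRC, CD163, MRC1, TYROBP, FCER1G and C1QB of the macrophage list, COL1A2, COL3A1, LUM and PDGFRB of the fibroblast list and MLANA, TYR and TYRP1 of the melanocyte list were undetected on every array. Summed over the macrophage markers, the log2 signal was 11.9 to 12.3 on the day 6 arrays and 11.9 to 12.3 with EGBG. The fibroblast markers summed to 9.45 to 10.5 and 10.3 to 10.8 on these arrays, and the melanocyte markers to 8.74 to 8.90 and 8.20 to 8.75. From day 6 to EGBG the mean of ACTA2 went from 7.63 to 9.49 and that of COL1A1 from 9.15 to 8.52. With spermidine/spermine alone the macrophage sum was 11.54 to 11.90, below the 11.92 to 12.35 of day 6. The melanocyte sum lay above day 6 with EGBG plus spermidine/spermine (9.07 to 9.36) and with putrescine (9.12 to 9.44). What part these markers have in the results below was not tested.

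The antioxidant response element has the core TGACNNNGC, and its matches near the members' start sites are shown as a description. What part they have in the changes below was not tested. The RefSeq promoter table of build GRCh38.p14 held 10 windows of 300 bases (250 before and 50 after an annotated start) for 8 members: AKR1C1, AKR1C2, AKR1C3, CBR1, GCLM, NQO1, PIR and TXNRD1. HMOX1 and AKR1B10 had no entry. The core was present on either strand in 5 of these 10 windows, those of CBR1, GCLM, PIR and both of TXNRD1. Over all genes 4687 of 35116 windows held it, or 13.3%. Counted by gene, 4 of the 8 members with a window held it, beside 16.1% of 27305 genes. The members were picked as textbook targets of NRF2, so these shares are no independent evidence. AKR1C1, which has a window, was not among the tested genes. The stretches below run 5′ to 3′ along the strand of the gene, with the 9 bases of the match in capitals; a match that reads GCNNNGTCA lies on the opposite strand.

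GCLM, chr1:93909431-93909489, minus strand: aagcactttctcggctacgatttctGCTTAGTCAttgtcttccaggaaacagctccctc
CBR1, chr21:36069840-36069898, plus strand: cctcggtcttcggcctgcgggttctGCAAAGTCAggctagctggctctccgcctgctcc
PIR, chrX:15493289-15493317, minus strand: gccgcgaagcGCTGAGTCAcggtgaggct
TXNRD1, first start, chr12:104215655-104215713, plus strand: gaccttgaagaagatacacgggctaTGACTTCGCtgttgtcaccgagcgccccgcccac
TXNRD1, second start, chr12:104286905-104286963, plus strand: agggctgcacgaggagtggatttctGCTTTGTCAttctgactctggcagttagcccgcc

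The GCLM match lay 34 to 26 bases before its start site. The CBR1 match lay 159 to 151 bases before, the PIR match 27 to 35 bases after, and the matches of both TXNRD1 windows 99 to 91 and 102 to 94 bases before. A further TXNRD1 match spanned the first start site, from 8 bases before it to its first base. The windows of NQO1, AKR1C1, AKR1C2 and AKR1C3 did not hold these letters, which describes the window and not the factor.

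**Figure D1:**
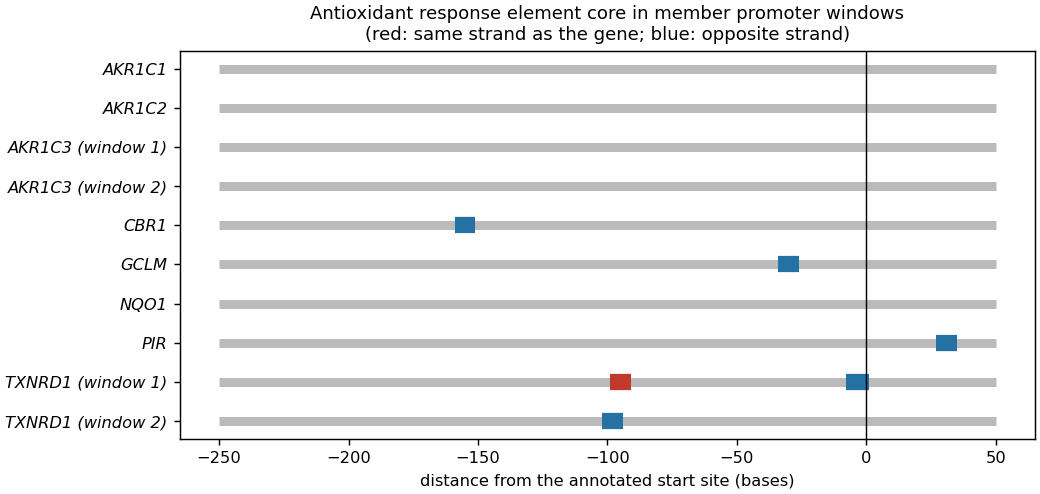
Position of the antioxidant response element core in the 10 promoter windows of 8 members (grey bars, 250 bases before to 50 after the annotated start at 0). Red boxes are matches on the strand of the gene and blue boxes matches on the opposite strand; 5 of the 10 windows hold at least 1.

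HMOX1 rose strongly from undifferentiated cells to untreated day 6 cells. The undifferentiated cells were of day 0, and no group was kept at 0.3 mM calcium to day 6. Calcium and days in culture therefore cannot be told apart in this comparison, called differentiation below. On the scale used here, log2 of the normalized intensity, HMOX1 stood at 5.50, 5.78, 5.65 and 5.64 on the undifferentiated arrays and at 10.08, 10.52, 10.71 and 10.86 on the day 6 arrays. The probe was undetected on all 4 undifferentiated arrays and detected on all 4 at day 6, so the rise is given as a bound of at least 16.8-fold (measured difference 4.90 ± 0.27, SE; adjusted p = 6.94e-14). P-values come from one limma fit of all 6 groups with Benjamini-Hochberg adjustment over the 12149 features, the threshold is an adjusted p of 0.05, and n is 4 per group throughout. In bulk RNA, fewer cells that make a transcript and less of it per cell cannot be told apart.

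Of the 8 other genes, 5 rose from undifferentiated cells to day 6, 2 fell and 1 did not pass the threshold. The arrays as a whole moved a great deal in this comparison, with 23.8% of all features higher and 33.8% lower, so calls in both directions were common among all features. The median change of the 8 genes was 1.45, against -0.10 over all features.

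The aldo-keto reductases, which reduce aldehydes, ketones and steroids with NADPH, made up most of the rises. AKR1B10, a retinal and aldehyde reductase, was at 5.74, 5.73, 6.09 and 5.83 in undifferentiated cells, undetected on all 4 arrays, and at 9.97, 9.66, 9.26 and 9.78 at day 6. It was thus higher by at least 9.15-fold (adjusted p = 8.75e-12). This rise and that of HMOX1 are both bounds, so they have no order. AKR1C3, which reduces ketosteroids and prostaglandins, went from 9.33, 9.15, 9.78 and 8.50 to 11.91, 11.89, 12.02 and 11.96. Both genes were apart from the undifferentiated arrays on every day 6 array, and the AKR1C3 rise was 2.75 ± 0.26 (adjusted p = 2.29e-09). AKR1C2, a close relative of AKR1C3, rose by 1.51 ± 0.24. AKR1C1, AKR1C2, AKR1C3 and AKR1C4 are near-identical in sequence, as are AKR1B10 and AKR1B15, so which of them a probe reports is uncertain.

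CBR1, a carbonyl reductase, was at 6.68, 6.41, 7.05 and 6.88 before and at 9.22, 7.94, 7.55 and 7.90 at day 6, a rise of 1.40 ± 0.25 in which day 6 replicate 1 stood well above the other 3 arrays. TXNRD1, the reductase that renews thioredoxin, went from 7.08, 6.39, 6.94 and 6.62 to 8.58, 8.30, 8.87 and 8.90 (1.91 ± 0.22), and was detected on 3 of the 4 undifferentiated arrays. Its dimmer probe, detected on 3 arrays in each of these groups, rose less, by 0.79. GCLM, the modifier subunit of the enzyme for the rate-limiting step of glutathione synthesis, went the other way, from 8.63, 8.83, 8.89 and 8.78 to 7.60, 7.83, 7.30 and 7.74. Its fall of 1.17 on the log2 scale (SE 0.18, adjusted p = 5.47e-06) left the groups apart.

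NQO1, a quinone reductase and the usual marker gene of NRF2 activity, fell by 0.79 (SE 0.22, adjusted p = 0.00297), from 11.56, 10.97, 11.40 and 10.85 to 10.26, 10.52, 10.33 and 10.51. That call was lost with its 2 probes averaged, where the change was -0.36 and the adjusted p 0.0961. The dimmer of the 2 was detected on 0 undifferentiated arrays and 1 day 6 array (means 6.00 and 6.07). The average therefore holds a probe that was largely undetected here and does not set 2 measured probes against each other. PIR, an iron-binding nuclear protein, was at 8.85, 9.31, 9.19 and 9.57 before and at 8.79, 9.25, 9.29 and 8.90 after. Its 2 groups overlapped, with a change of -0.17 and a 95% interval from -0.68 to 0.34, and it passed as lower with median scaling (-0.67, adjusted p = 0.0299), which moved the median of all features to -0.53.

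**Figure D2:**
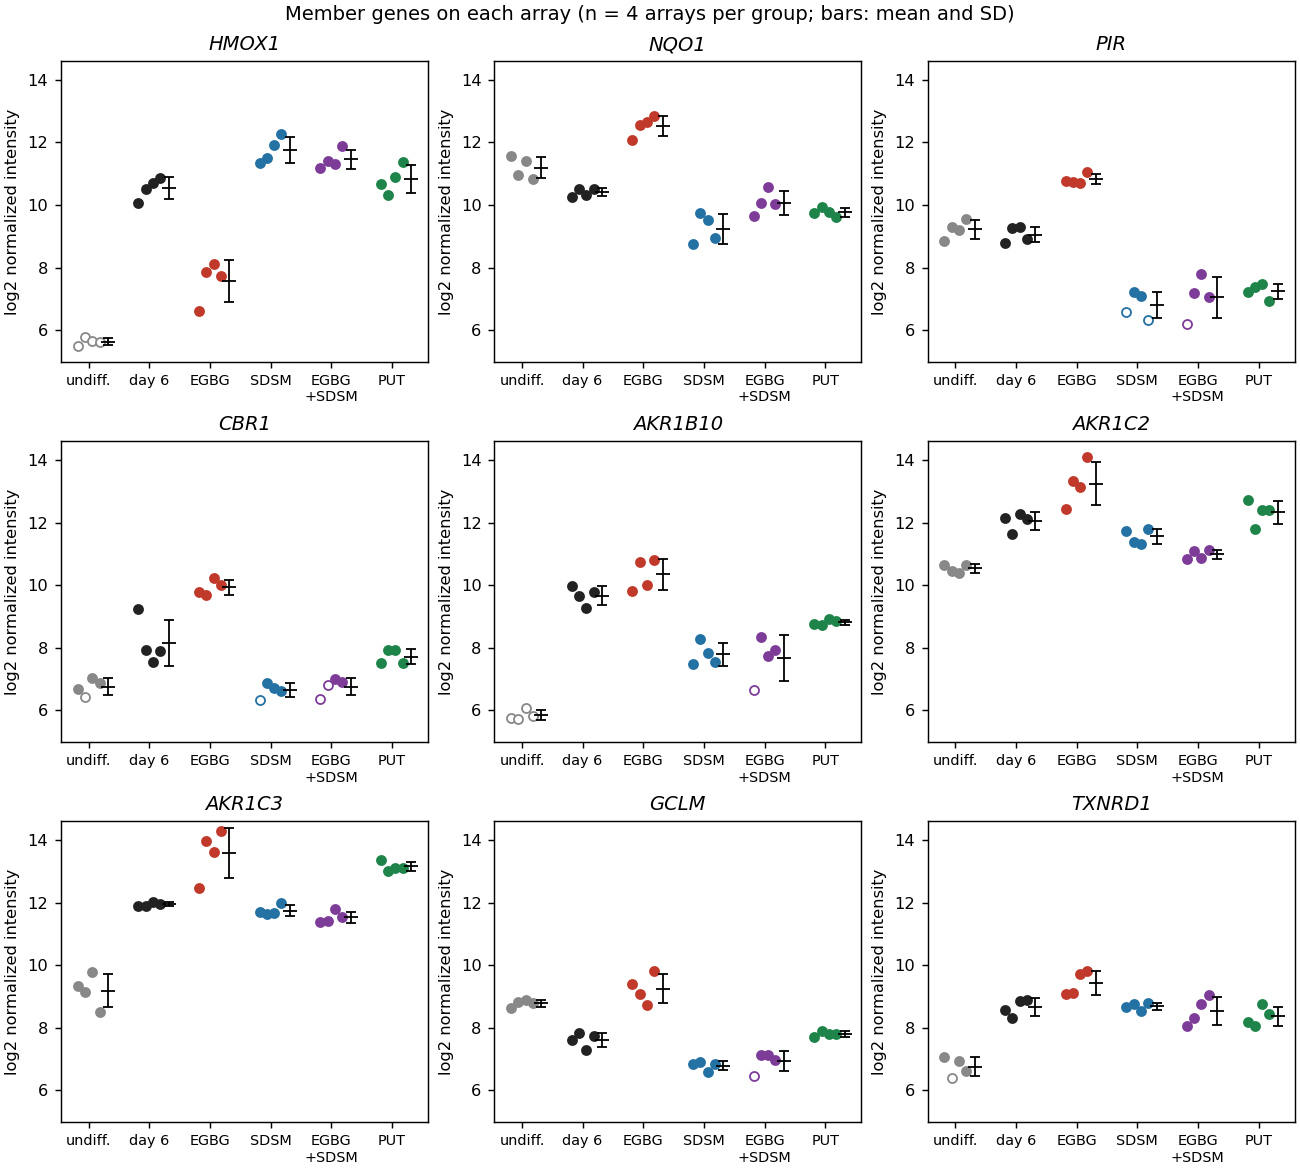
Log2 normalized intensity of the 9 measured members on each array, by group (undiff., undifferentiated; SDSM, spermidine/spermine; PUT, putrescine). Filled points are detected arrays and open points undetected ones, and the black bars give the mean and SD of 4 arrays; HMOX1 is lowest with EGBG among the day 6 groups, while the 8 other genes have their highest mean there.

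With EGBG, HMOX1 and the other genes parted. HMOX1 was at 6.61, 7.85, 8.12 and 7.75 on the 4 EGBG arrays, all below the lowest day 6 array at 10.08. The fall was 2.96 on the log2 scale (SE 0.27, adjusted p = 3.99e-09), or 7.77-fold, and it ranked 81 among the 12149 features ordered from the largest fall. EGBG replicate 1 was the lowest of its group. All 4 EGBG arrays still detected HMOX1 and stood above the undifferentiated ones. In the deposited intensities, before any normalization, the probe read 1430 to 1760 at day 6, 82.9 to 307 with EGBG and 1.36 to 21.9 in undifferentiated cells. The authors' second deposited table does not carry this pattern: there the HMOX1 signal is at the floor of 40 on all 24 arrays, although the detection p in that table is under 0.01 on 20 of them. Of 5471 probes that exceeded 1000 on some array of the series matrix, 136 were at that floor throughout, and 129 of these were undetected on all undifferentiated arrays, as HMOX1 was.

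All 8 other genes rose with EGBG, where 21.3% of all features were higher and 17.7% lower. Their median change was 1.63 against 0.07 over all features, and the range was 0.68 to 2.13. For 7 of the 8 genes the EGBG arrays did not overlap the day 6 arrays, as was so for 17% of all features in the higher direction and 14.4% in the lower. The members were picked with earlier results of these arrays known, so the count describes them and is no independent evidence.

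NQO1 changed most, from its day 6 values to 12.09, 12.55, 12.65 and 12.85. The rise was 2.13 ± 0.22, or 4.38-fold (adjusted p = 2.51e-08), and it ranked 26 of the 12149 features ordered from the largest rise. Its dimmer probe moved the same way, by 1.13. PIR reached 10.78, 10.74, 10.71 and 11.07, a rise of 1.77 ± 0.24 (adjusted p = 3.04e-06) that its other probe gave as 1.75.

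Among the reductases CBR1 reached 9.77, 9.69, 10.23 and 10.02, a rise of 1.77 ± 0.25 (adjusted p = 3.26e-06). AKR1C3 reached 12.47, 13.96, 13.60 and 14.28, and rose by 1.63 ± 0.26. AKR1C2 reached 12.42, 13.32, 13.13 and 14.09, and rose by 1.19 ± 0.24. In both AKR1C genes EGBG replicate 1 was the closest to day 6. AKR1B10 moved least of all members: its EGBG arrays, at 9.82, 10.74, 10.02 and 10.80, overlapped the day 6 arrays. Its change of 0.68 ± 0.27 passed narrowly (adjusted p = 0.0482), and the call was lost without day 6 replicate 2, 3 or 4 or without EGBG replicate 2 or 4, with adjusted p up to 0.162. It was also lost with no background model (adjusted p = 0.0688), without the detection filter (0.137), with the compared groups alone (0.063) and in the second table (0.077), so the count of 8 rests on it.

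In the glutathione and thioredoxin arms, GCLM reached 9.39, 9.09, 8.71 and 9.80, above every day 6 array, and rose by 1.63 ± 0.18 (adjusted p = 1.18e-07). Its other probe rose by 1.06. TXNRD1 reached 9.09, 9.11, 9.72 and 9.81, against a highest day 6 array of 8.90. The rise was 0.77 ± 0.22 (adjusted p = 0.0063), the second smallest of the 8 genes after AKR1B10. The dimmer TXNRD1 probe rose by 0.67. With EGBG the GCLM arrays overlapped those of undifferentiated cells, at 8.63 to 8.89, whereas NQO1 stood above every undifferentiated array.

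Set directly against each other, the HMOX1 change with EGBG was below that of each of the 8 genes, with adjusted p of 3.5e-08 or less by limma's lmFit with each difference's own variance. That test separates HMOX1 from 98.8% of all features, because its change was so large, and therefore says little about these 8 in particular. The same held for the other comparisons tested in this way. HMOX1 differed from 7 of the 8 genes on differentiation, where 99.1% of all features differed from it; AKR1B10 is left out of that count, because both probes were undetected in undifferentiated cells. It differed from each of the 8 with spermidine/spermine (85.7%) and for EGBG plus spermidine/spermine against EGBG (99.1%). With EGBG the sign of HMOX1 was opposite to that of all 8 genes, as it was to that of 56.4% of all features.

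**Figure D3:**
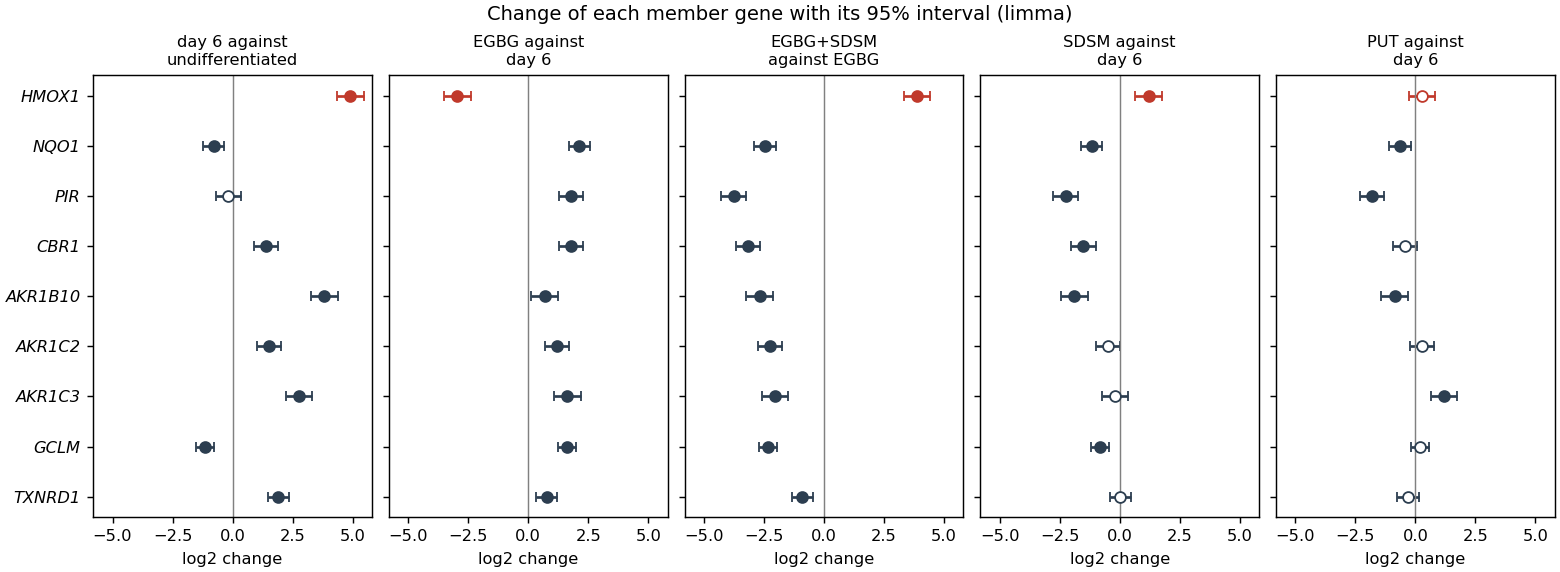
Log2 change of each member with its 95% interval in 5 comparisons (4 arrays against 4; SDSM, spermidine/spermine; PUT, putrescine). Filled points passed an adjusted p of 0.05 and open points did not. The differentiation values of HMOX1 and AKR1B10 are measured differences from undetected arrays; HMOX1, in red, lies on the other side of 0 from the 8 other genes with EGBG and with spermidine/spermine added to EGBG.

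With spermidine/spermine in addition to EGBG, both movements were turned round relative to EGBG alone. Both compounds were given from day 3, so "added" here and below names this comparison and not a later step. HMOX1 was at 11.19, 11.42, 11.33 and 11.89, above all 4 EGBG arrays and also above all 4 day 6 arrays. Against EGBG it rose by 3.87 ± 0.27, or 14.7-fold (adjusted p = 1.55e-11). All 8 other genes fell against EGBG, by a median of 2.39 on the log2 scale where the median of all features was -0.07, and for none of them did the arrays of both groups overlap. Over all features the arrays of these groups lay apart for 20% in the higher direction and 24.4% in the lower. In this comparison 22.2% of features were higher and 29% lower.

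Among the 8, PIR changed most, with 6.20, 7.19, 7.79 and 7.06 in the combination, 13.6-fold below EGBG (adjusted p = 4.79e-12). One of these 4 arrays, replicate 1, did not detect PIR. CBR1 dropped to 6.36, 6.81, 6.99 and 6.89, which is 8.96-fold below EGBG, and was detected on 2 of the 4 arrays. An array on which a probe was undetected gives only an upper bound for it.

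NQO1 was at 9.64, 10.06, 10.57 and 10.04, a fall of 2.46 on the log2 scale (SE 0.22). GCLM was at 6.47, 7.14, 7.14 and 6.97 (-2.32 ± 0.18), and AKR1B10 at 6.64, 8.34, 7.75 and 7.93 (-2.68 ± 0.27). Each was detected on 3 of these 4 arrays. AKR1C2 fell by 2.26 to 10.84, 11.08, 10.87 and 11.13, and AKR1C3 fell by 2.05 to 11.38, 11.43, 11.78 and 11.54. TXNRD1 had the smallest fall, 0.90 (SE 0.22, adjusted p = 0.00128), to 8.05, 8.30, 8.75 and 9.04. The dimmer TXNRD1 probe changed by -0.57.

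Spermidine/spermine without the inhibitor already lowered part of the group. HMOX1 was at 11.34, 11.49, 11.92 and 12.27, above every day 6 array, a rise of 1.21 ± 0.27 (adjusted p = 0.0016). Of the 8 other genes 5 fell and 3 did not pass, where 12.3% of all features were higher and 13% lower. Their median change was -0.99 against -0.02 over all features. This comparison, those of EGBG and putrescine with day 6, and that of day 6 with undifferentiated cells share the 4 untreated day 6 arrays, so their values are given side by side and not correlated.

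PIR fell most, to 6.59, 7.21, 7.09 and 6.34, which was 4.77-fold below day 6 (adjusted p = 7.61e-07). AKR1B10 fell to 7.47, 8.29, 7.83 and 7.56 (-1.88 ± 0.27), and CBR1 to 6.34, 6.86, 6.73 and 6.62 (-1.51 ± 0.25). These 3 genes lost most of their signal, and PIR was detected on only 2 of the 4 arrays. NQO1 was at 8.75, 9.74, 9.54 and 8.95, a fall of 1.16 on the log2 scale (SE 0.22), and GCLM at 6.84, 6.90, 6.58 and 6.85, a fall of 0.82 (SE 0.18). The other three did not pass the threshold. AKR1C2 changed by -0.49 (95% interval -0.98 to 0.00), AKR1C3 by -0.20 (-0.74 to 0.34) and TXNRD1 by 0.03 (-0.42 to 0.47). AKR1C2 passed as lower with median scaling (-0.79, adjusted p = 0.0161), which moved the median of all features to -0.37, and in the second table (-0.75, adjusted p = 0.0316).

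In cells given spermidine/spermine, EGBG given from the same day changed the 8 other genes by -0.58 to 0.83. By the limma fit none of the 9 members passed the threshold, and 2 had an unadjusted p under 0.05, NQO1 (0.83 ± 0.22, adjusted p = 0.0581) and AKR1C2 (-0.58 ± 0.24, adjusted p = 0.252). HMOX1 changed by -0.30 with a 95% interval from -0.85 to 0.26. Of all features only 0.56% were higher and 0.428% lower. The replicate numbers pair the arrays in this comparison, and with the number as a block NQO1 passed (0.83, adjusted p = 0.0303), as it did with array weights (adjusted p = 0.0323) and in the second table (1.07, adjusted p = 0.0489), and the features called went from 120 to 306. Without EGBG plus spermidine/spermine replicate 1, or without spermidine/spermine replicate 2 or 3, NQO1 passed as well, with a change of up to 1.00.

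The difference between the EGBG effect with and without spermidine/spermine was tested as an interaction. It was 2.66 ± 0.38 for HMOX1 (adjusted p = 1.56e-05) and below 0 for all 8 other genes, of which 7 passed, with a median of -1.50 against -0.05 over all features. Over all features 9.72% were higher and 8.76% lower. The largest of the 8 was that of AKR1C3 (-1.85 ± 0.37, adjusted p = 0.000901). AKR1B10 did not pass (-0.80 ± 0.38, adjusted p = 0.161). TXNRD1 passed narrowly (-0.92 ± 0.31, adjusted p = 0.036). It did not pass without the detection filter (adjusted p = 0.0969), with the compared groups alone (0.0549) or in the second table (-0.77, adjusted p = 0.202). Its call was lost without day 6 replicate 1 or 2, EGBG replicate 3 or 4, EGBG plus spermidine/spermine replicate 1 or 2, or spermidine/spermine replicate 1, 2 or 4, and the value then ranged from -1.09 to -0.76 over the 16 arrays left out in turn.

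Relative to untreated day 6 cells, HMOX1 was higher with the combination and part of the other genes were lower. HMOX1 was higher by 0.92 ± 0.27 (adjusted p = 0.0213), a call lost without day 6 replicate 1 or without replicate 4 of the combination, with adjusted p up to 0.0854. Of the 8 other genes 5 fell and 3 did not pass, where 8.72% of all features were higher and 7.7% lower, and the median of the 8 was -0.88 against 0.00. AKR1B10 and PIR were both lower by 2.00 on the log2 scale (SE 0.27 and 0.24), and the changes of CBR1, AKR1C2 and GCLM were -1.39, -1.06 and -0.69. The GCLM call was lost without replicate 1 of the combination and with the compared groups alone (adjusted p = 0.0571 in both). NQO1 (-0.33), AKR1C3 (-0.41) and TXNRD1 (-0.13) did not pass. The dimmer TXNRD1 probe had the other sign here (0.11).

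Putrescine, the precursor of spermidine, divided the genes in another way. HMOX1 was at 10.68, 10.33, 10.91 and 11.38, overlapping day 6, with a change of 0.28 and a 95% interval from -0.27 to 0.84 (-0.29 with median scaling, which moved the median of all features to -0.51). Of the 8 others 1 rose, 3 fell and 4 did not pass, where 9.58% of all features were higher and 7% lower. Their median was -0.37 against 0.03 over all features.

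The gene that rose was AKR1C3, at 13.38, 13.01, 13.12 and 13.11 on the putrescine arrays, above every day 6 array (1.21 ± 0.26, adjusted p = 0.003). With median scaling that call was lost (0.66, adjusted p = 0.0548), and CBR1 (-1.07, adjusted p = 0.00724) and TXNRD1 (-0.95, adjusted p = 0.00507) passed as lower. PIR fell to 7.24, 7.38, 7.47 and 6.92 (-1.81 ± 0.24, adjusted p = 2.56e-05). AKR1B10 fell to 8.75, 8.72, 8.91 and 8.86 and NQO1 to 9.76, 9.94, 9.78 and 9.60, both below every day 6 array. These last calls were narrow. AKR1B10 (-0.86 ± 0.27, adjusted p = 0.0309) lost its call without day 6 or putrescine replicate 1, 2 or 4, with adjusted p up to 0.1, and also without the detection filter (0.0928) and in the second table (0.185). NQO1 (-0.63 ± 0.22, adjusted p = 0.0455) lost it without any 1 of the 8 arrays, with adjusted p up to 0.118, and also with no background model (0.0545), without the detection filter (0.116) and in the second table (0.0742). CBR1 (-0.44), TXNRD1 (-0.30), AKR1C2 (0.28) and GCLM (0.18) did not pass.

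Across the 6 groups the order of HMOX1 levels was, from the highest mean, spermidine/spermine (11.8 ± 0.42, SD), EGBG plus spermidine/spermine (11.5 ± 0.30), putrescine (10.8 ± 0.44), untreated day 6 (10.5 ± 0.34), EGBG (7.58 ± 0.67) and undifferentiated (5.64 ± 0.11). The first and second overlapped, as did the combination and putrescine, and putrescine and day 6. The EGBG arrays lay apart from both neighbours. All 8 other genes had their highest mean with EGBG. At the other end they divided: AKR1B10, AKR1C2, AKR1C3 and TXNRD1 had, like HMOX1, their lowest mean in undifferentiated cells and no overlap with the next group up, whereas NQO1, PIR, CBR1 and GCLM had theirs with spermidine/spermine, where their arrays overlapped those of at least 1 other group.

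Over the 6 group means, the correlation of HMOX1 with the other members was -0.89 for GCLM, -0.78 for NQO1, -0.76 for PIR, -0.28 for CBR1, 0.08 for AKR1C2, 0.26 for AKR1B10, 0.42 for AKR1C3 and 0.50 for TXNRD1. Among the other 8, 27 of 28 pairs were above 0, with a median of 0.68. The range was from -0.13 for GCLM with TXNRD1 to 0.95 for NQO1 with PIR. The share over all pairs of features was not computed. All 8 genes have their highest mean with EGBG and were picked with earlier results known, so the count is no independent evidence. These are descriptions over 6 points that share arrays and normalization. Of 9033 genes ranked by likeness to HMOX1, the 8 members stood at places 2652 to 7654.

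The 5 genes with the pattern most like HMOX1 were SERPINB13, LYPD5, ABCA12, CYP4F22 and GSDMC, all at r of 0.998 over the 6 means. ABCA12, the lipid transporter of lamellar granules, rose at least 9.53-fold on differentiation from undifferentiated arrays that did not detect it, fell by 2.41 with EGBG and rose by 2.82 when spermidine/spermine was added. CYP4F22, a fatty acid hydroxylase of acylceramide synthesis, rose at least 18.1-fold in the same way, then changed by -3.70 and 4.57. For comparison, of 9 tested keratinocyte markers 2 fell with EGBG and 7 did not pass, where 17.7% of all features were lower. The 2 were involucrin (IVL), a cornified envelope precursor, and LORICRIN. IVL rose at least 9.82-fold on differentiation and then changed by -3.16 and 3.87. LORICRIN changed by -3.25 with EGBG and by 3.36 when spermidine/spermine was added. The early differentiation keratins KRT1 (-0.54) and KRT10 (0.17) were among the 7. The part of the differentiation state in the HMOX1 values was not tested.

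For NQO1 the 5 most alike genes were EARS2, THUMPD1, NDUFA6, ALG3 and EMC7, at r of 0.994 to 0.999. EARS2, a mitochondrial glutamyl-tRNA synthetase, rose by 1.89 with EGBG and fell by 2.08 when spermidine/spermine was added. Of the members, PIR stood at place 257 of the 9033, GCLM at 524 and CBR1 at 1767. The others were farther down: AKR1C2 at 3538, AKR1B10 at 3949, AKR1C3 at 4741, TXNRD1 at 4756 and HMOX1 at 7939.

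A wider list of other NRF2 targets held 38 genes, of which 25 were tested. With EGBG 15 of the 25 rose and 5 fell, with a median of 0.52 against 0.07 over all features and with the 21.3% and 17.7% of all features given above. GCLC, the catalytic partner of GCLM, rose by 1.32 ± 0.17. SRXN1, which repairs oxidized peroxiredoxins, rose by 1.16 ± 0.15, and the ferritin light chain FTL by 1.46 ± 0.35. ABCC3, an exporter of conjugates, went against them with a fall of 2.32 (SE 0.23). When spermidine/spermine was added to EGBG, 16 of the 25 fell and 3 rose, beside 29% and 22.2% of all features, with a median of -0.67: GCLC fell by 1.62, SRXN1 by 1.36 and FTL by 1.67, and ABCC3 rose by 1.85.

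On differentiation that list was divided evenly, with 8 of 25 higher and 8 lower and a median of -0.27, beside 23.8% and 33.8% of all features. GSTA4, a glutathione transferase for lipid aldehydes, rose by 2.41 ± 0.16. UGDH, which makes UDP-glucuronate, fell by 2.14 (SE 0.16), and GCLC fell by 1.27 (SE 0.17), in the direction of GCLM. With spermidine/spermine alone 1 of the 25 rose and 6 fell, beside 12.3% and 13% of all features, and with putrescine 3 rose and 5 fell, beside 9.58% and 7%.

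Among 12 measured regulators of NRF2, 3 rose and 4 fell with EGBG, with a median of 0.07 that equals that of all features. The counts with EGBG in this and the next lists stand beside 21.3% of all features higher and 17.7% lower, and those for the addition of spermidine/spermine beside 22.2% and 29%. NFE2L2 itself did not pass in any of the 8 comparisons: its change was 0.18 ± 0.19 with EGBG and -0.24 ± 0.19 when spermidine/spermine was added. Its mRNA does not report the amount of the protein. KEAP1 rose by 0.62 ± 0.22 with EGBG (adjusted p = 0.0281) and fell at least 1.58-fold when spermidine/spermine was added, where no array detected it (adjusted p = 1.71e-05). NFE2L3, a relative of NRF2, fell by 2.11 (SE 0.20) with EGBG and rose by 2.72 ± 0.20 on the addition, the same signs as HMOX1, and was detected on 1 of the 4 EGBG arrays. CDKN1A, whose protein p21 can stabilize NRF2, rose by 0.77 ± 0.11.

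Of 21 tested genes for heme and iron handling, 10 rose and 6 fell with EGBG, with a median of 0.34. ACO1, the iron-sensing aconitase, rose by 1.70 ± 0.19, and the iron importer SLC11A2 fell by 1.21 (SE 0.16). In the same comparison the biliverdin reductase BLVRB rose by 0.68 ± 0.15, while BLVRA changed by -0.19 (limma, adjusted p = 0.424). This pair was chosen after its values were seen.

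In the glutathione list 7 of 24 genes rose and 6 fell with EGBG, with a median of 0.10. CHAC1, which degrades glutathione, was undetected on all 4 EGBG arrays and fell at least 2.51-fold (adjusted p = 5.82e-05). The glutaredoxin GLRX fell by 2.40 (SE 0.27). Of 10 other aldo-keto and carbonyl reductases 6 rose with EGBG and 4 did not pass, with a median of 0.61, and 8 fell when spermidine/spermine was added. AKR1C4 (1.24 ± 0.30) and AKR1B15 (1.23 ± 0.21) led the rises, and both are close relatives in sequence of member genes.

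Of 20 thioredoxin system genes 9 rose and 2 fell with EGBG, with a median of 0.46. TXNIP, the inhibitor of thioredoxin, rose by 3.17 ± 0.55 and SESN1, a sestrin, by 2.34 ± 0.18. Metals, and in some cells heat, also raise HMOX1. Of 21 heat shock genes 8 rose and 1 fell, with a median of 0.27, and the largest changes were those of HSPB8, a small heat shock protein, which fell by 2.06 (SE 0.17), and of HSPA1A, an inducible HSP70 chaperone, which rose by 1.89 ± 0.25. HSPB8 had the signs of HMOX1 also when spermidine/spermine was added (2.94 ± 0.17), and HSPA1A the opposite ones (-1.08 ± 0.25). HSPA1A and HSPA1B are near-identical in sequence, so which of them the probe reports is uncertain. Of 7 tested genes of the metallothionein list 5 fell with EGBG, with a median of -1.58. That list also named SLC30A1 and MTF1, which are not metallothioneins. Among the 5 were MT2A (-2.82 ± 0.50) and MT1G, which no EGBG array detected (at least 3.41-fold lower, limma adjusted p = 2.46e-11). When spermidine/spermine was added, 5 of the 7 rose and 1 fell. Of 10 polyamine genes 3 rose and 6 fell with EGBG, among them SMOX, the spermine oxidase, by at least 1.11-fold (adjusted p = 0.0124), undetected on all 4 EGBG arrays.

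**Figure D4:**
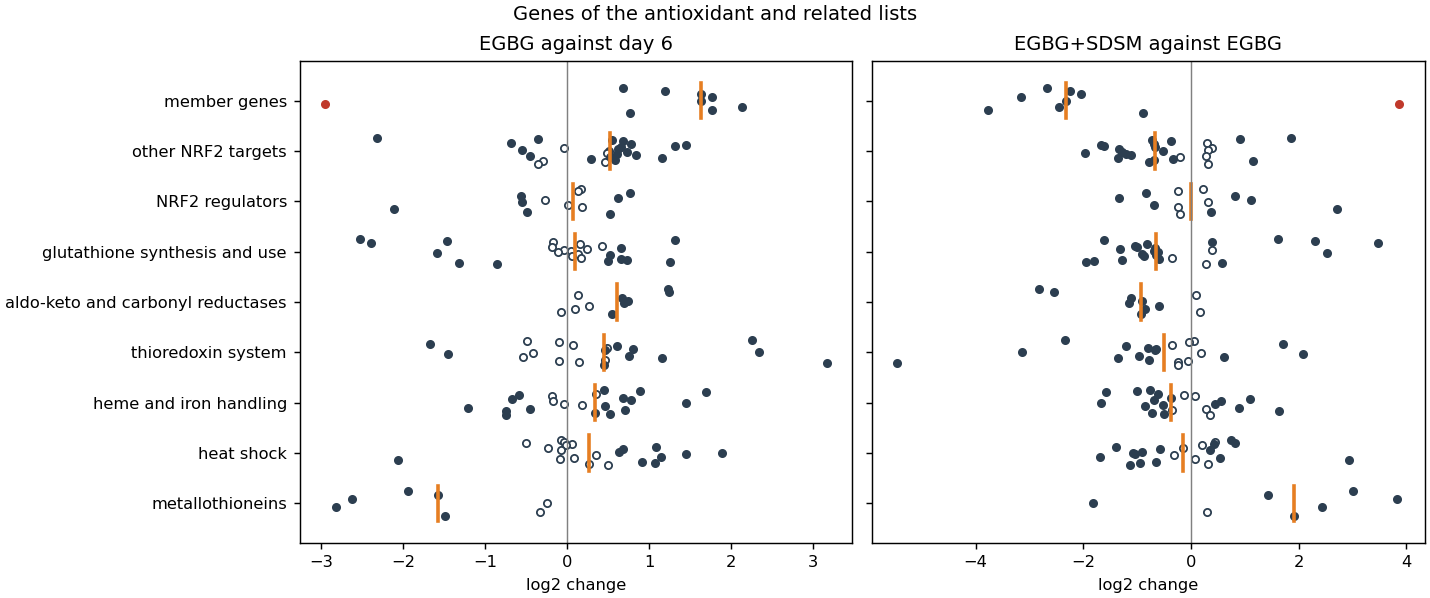
Log2 change of every tested gene of the members and of 8 further lists with EGBG against day 6 (left) and with spermidine/spermine added to EGBG (right). Each point is a gene, filled where its adjusted p was under 0.05, the orange line is the median of the list and HMOX1 is red; genes may stand in more than 1 list, and the medians of the member genes are 1.63 and -2.32.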

How the data were processed

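RNA from 24 samples of N/TERT1 keratinocytes was read on Illumina bead arrays, 4 arrays in each of 6 groups taken from the sample labels. In the authors' series matrix, deposited values are linear fluorescence intensity, background-subtracted and, from their unequal distributions, not normalized between arrays. A second deposited table has, per the file headers, a signal with a detection p-value for every probe; 65.7% of its signals sit at a floor of 40, so it was used for the detection p-values and otherwise only as an alternative. GenomeStudio is named in the submitters' processing notes, with no settings.

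From the intensities, log2 values were made with neqc (limma 3.58.1, R 4.3.3): background modelled through the detection p-values, offset 16, quantile normalization. Detection means p under 0.01, and probes detected on 4 or more arrays stayed in (14304). Each gene was represented by its brightest probe (2155 others left out), which gave 12149 features, 9034 with a symbol. Symbols came from the platform annotation (1 symbol for 30102 probes, several for 8, none for 17194). One lmFit and eBayes fit over the 6 groups gave two-sided contrasts, Benjamini-Hochberg adjusted over all features. For HMOX1 minus each other feature the variances were not moderated (18 degrees of freedom), because all these differences hold the HMOX1 values and moderation gave 191.9; this was decided after the values were seen. Bounds set the brighter group's mean against the higher of an array's lowest detected signal and the probe's own. The number of arrays limits the precision. The fit was run on simulated data with independent noise on every array, which does not hold the pairing of arrays described below.

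The members and lists were chosen with earlier results of these data known. Named genes are the 10 members, up to 4 genes per list with the largest change past the threshold with EGBG and on differentiation, NFE2L2, KEAP1, BACH1, HMOX2, SLC7A11, SRXN1, GCLC, TXNIP and SMOX where measured, and the 5 genes most like HMOX1 and NQO1 over the group means; BACH1, HMOX2 and SLC7A11 were not among the tested features. IVL, LORICRIN, KRT1 and KRT10 come from the marker list and were named outside this rule.

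Arrays with the same replicate number deviated together in EGBG against day 6 (r from 0.29 to 0.57 in the 4 pairs) and in EGBG plus spermidine/spermine against spermidine/spermine (0.25 to 0.39), so the numbers pair the arrays there. In EGBG against day 6, replicate 4 matched another number better than its own. The pairing comes from the data, and the labels only number the replicates. Alternatives were no background model, median scaling, no detection filter or detection on 12 arrays, the mean of a gene's probes, the second table, the replicate block, a fit of the compared groups alone, array weights, moderated variances for the HMOX1 differences (added after the data were seen), and each array left out. Promoter windows are those of RefSeq (GRCh38.p14).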

Additional observations from a re-analysis of the deposited data

Results flagged for a closer look

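The EGBG effect in the presence of spermidine/spermine minus that without it differed from 0 by the limma interaction test in 8 of the 9 measured members, and these 8 are listed for that reason. The values, on the log2 scale and adjusted over all features, were 2.66 for HMOX1 and, with the opposite sign, -1.30 for NQO1, -1.51 for PIR, -1.65 for CBR1, -1.77 for AKR1C2, -1.85 for AKR1C3, -1.50 for GCLM and -0.92 for TXNRD1. The TXNRD1 value did not pass without the detection filter, with the compared groups alone, in the second table or without some single arrays. No array stood apart from the other 3 of its group by Dixon's criterion in any of the 54 combinations of member and group.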

How the results depend on the processing

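Of 856 values under alternatives that keep all arrays and were planned, 818 kept their direction and their side of the threshold (counts: within 1.5 times). With moderated variances, an alternative added after the data were seen, the same genes differed from HMOX1 in the 4 comparisons tested as without moderation. HMOX1 has no value in the second deposited table, where it is at the floor, so counts there are over 8 members. The HMOX1 change for EGBG plus spermidine/spermine against day 6 did not pass under median scaling (0.76, adjusted p = 0.0621) or without the detection filter (0.92, adjusted p = 0.0657), and ranged from 0.76 to 1.02 with an array left out. Median scaling turned HMOX1 (-0.29), AKR1C2 (-0.27) and GCLM (-0.50) with putrescine, TXNRD1 with spermidine/spermine (-0.45), and AKR1B10 (0.11) and TXNRD1 (0.05) for the combination against spermidine/spermine. In that last comparison the mean of a gene's probes turned GCLM (-0.05), and the second table turned TXNRD1 with spermidine/spermine (-0.04). None of these had passed the threshold. The count of members past it with putrescine was 2 without the detection filter and in the second table, and 2 to 3 with an array left out; for the combination against spermidine/spermine it was 1 with array weights, the replicate block or the second table, and 0 to 1 with an array left out. With an array left out, unpassed values crossed 0 for AKR1B10 (-0.35 to 0.22) and TXNRD1 (-0.32 to 0.01) in that comparison, for TXNRD1 with spermidine/spermine (-0.09 to 0.1) and for TXNRD1 in the combination against day 6 (-0.29 to 0.03). The causes were not tested.

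Median scaling moved the median of all features to -0.53 on differentiation, 0.41 with EGBG, -0.37 with spermidine/spermine, -0.51 with putrescine and -0.60 for the combination against EGBG. Relative to that median HMOX1 changed by 5.51, -3.02, 1.25, 0.22 and 3.96 in the same order. The share of higher features among those called went from 41.3% to 20.5%, 54.7% to 80.6%, 48.7% to 10%, 57.8% to 2.59% and 43.3% to 16.6%, and in the other 3 comparisons from 56.7% to 89.4% (combination against spermidine/spermine), 53.1% to 24% (against day 6) and 52.6% to 39.1% (interaction). Features called with spermidine/spermine numbered 3083, against 4771 with median scaling and 1944 with the compared groups alone, and with putrescine 2015, against 6576 with median scaling and 1316 in the second table. For the combination against day 6 there were 1994, against 851 with the compared groups alone and 1249 in the second table. Against spermidine/spermine there were 120, against 306 with the replicate block, 263 with array weights, 54 in the second table and 3 with the compared groups alone.

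Over the 7 comparisons, 21 of 28 pairs of same-numbered arrays correlated above 0.1 (-0.26 to 0.57), and 18 of 28 arrays matched their own number best. Outside the comparisons named as paired, the match was partial. With putrescine and for the combination against EGBG, replicates 2, 3 and 4 matched their own number best and replicate 1 did not. In the remaining comparisons not all did. The replicate block changed no member's call but that of NQO1. The slide could not be used as a block, because the headers name none. At least 1 array of a group did not detect HMOX1, AKR1B10, PIR, CBR1, GCLM or TXNRD1, which limits the values there.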
